A study of Mus musculus with 10 samples.

Results

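Sphingosine and ceramide metabolism was followed through 10 genes, Sphk1, Sphk2, Asah1, Smpd1, Sgpl1, Sptlc1, S1pr1, Cerk, Cers2 and Sgms1. They were picked by symbol from the 24421 gene symbols listed for every library, and all 10 were found and passed the filter on low counts. The RNA came from cells prepared as microglia by papain digestion and a density gradient from cortex of mice aged 9 months. There were 3 WT, 4 APP/PS1 and 3 APP/PS1+N-AS libraries. APP/PS1 mice carry the transgenes hAPP695swe and presenilin-1M146V, whose promoters are not given in the sources used here. APP/PS1+N-AS mice carry both transgenes and were given N-acetyl sphingosine (N-AS), an acetylated sphingosine that the study describes as a product of SphK1, subcutaneously at 30 mg/kg each day for 8 weeks from 7 months of age. The study describes vehicle for the APP/PS1 mice not given N-AS, which the sample labels do not state. Each library pools 2 mice, so the library is the replicate and no spread between single mice can be seen.

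Ceramide is the hub of this pathway. It is built on serine and palmitate by serine palmitoyltransferase and the ceramide synthases, stored as sphingomyelin or phosphorylated, and cleaved by ceramidases to sphingosine. Sphingosine kinases turn sphingosine into sphingosine-1-phosphate (S1P), which signals through cell-surface receptors and leaves the pathway when S1P lyase splits it. In microglia, as in other phagocytes, the acid hydrolases that take sphingolipids apart work in the lysosome.

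The total count per library was between 8805804 and 19432075, and 18727 genes were tested. Levels are given as CPM, read counts scaled to a common library size with TMM factors. Each of the 18 microglial markers examined had reads in every library. Their summed level was 815 to 1110.6 CPM in WT, 2394.4 to 2907.6 CPM in APP/PS1 and 1390.0 to 1953.5 CPM in APP/PS1+N-AS libraries. The preparations were mixed, since 10 oligodendrocyte markers summed to 1980.0 to 7155.6 CPM and 10 neuronal markers to 3119.5 to 6319.1 CPM. WT replicate 3 stood apart from the other WT libraries in its markers. Its oligodendrocyte markers were at 2472.3 CPM against 7024.5 and 7155.6 CPM. Its endothelial markers were at 551 CPM, the lowest of the 10 libraries. WT replicate 1 was unlike the others in another way. It had the lowest total count, 8805804, yet the fewest genes without reads, 566, against 3305 and 1013 in WT replicates 2 and 3. Its r of log2 CPM with WT replicates 2 and 3 was 0.93 and 0.933, against 0.954 between those libraries. The cause was not tested. The study's methods name male mice, but Xist, which is expressed from the inactive X chromosome, had 33 to 37 reads in WT, 5253 to 11188 in APP/PS1 and 7024, 8848 and 29 in the APP/PS1+N-AS libraries. Summed reads of 4 Y-linked genes were 1492 to 3700 in WT, and 495, 690, 13 and 13 in APP/PS1 replicates 1 to 4. They were 470, 863 and 2377 in the APP/PS1+N-AS libraries. Sex and genotype therefore cannot be told apart in the comparison of APP/PS1 with WT. The comparisons with N-AS are also mixed in sex. APP/PS1+N-AS replicate 3 had 29 Xist reads, unlike every APP/PS1 library, and replicates 1 and 2 had 7024 and 8848, unlike every WT library. The part of sex was not tested.

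The genes differed widely in level. These are levels of the mixed preparations, and the order in microglia alone was not measured. Between genes, levels were compared per kilobase of exon (CPM per kb), with exon lengths from GENCODE M21, an annotation that the authors may not have used. S1pr1, 1 of the S1P receptors, was the most abundant transcript of the 10 genes at 43.6 ± 7.86 CPM per kb (SD, n = 10 libraries of all groups). Asah1, acid ceramidase, followed at 23.5 ± 5.11 CPM per kb, and Sgms1, the sphingomyelin synthase of the Golgi, at 16.8 ± 2.72 CPM per kb. Cerk, Cers2, Smpd1, Sptlc1 and Sgpl1 lay between 7.28 and 10.2 CPM per kb on average, and the ranges of these neighbours over libraries overlapped. Of the sphingosine kinases, Sphk2 had 4.05 ± 0.397 and Sphk1 0.82 ± 0.344 CPM per kb. Sphk1 was below Sphk2 in every library, with 0.488 to 1.42 against 3.61 to 4.69 CPM per kb. S1pr1 and Asah1 overlapped over libraries, as did Asah1 and Sgms1, while the lowest Sgms1 value of 12.2 CPM per kb lay above the highest Cerk value of 11.9 CPM per kb.

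**Figure D1:**
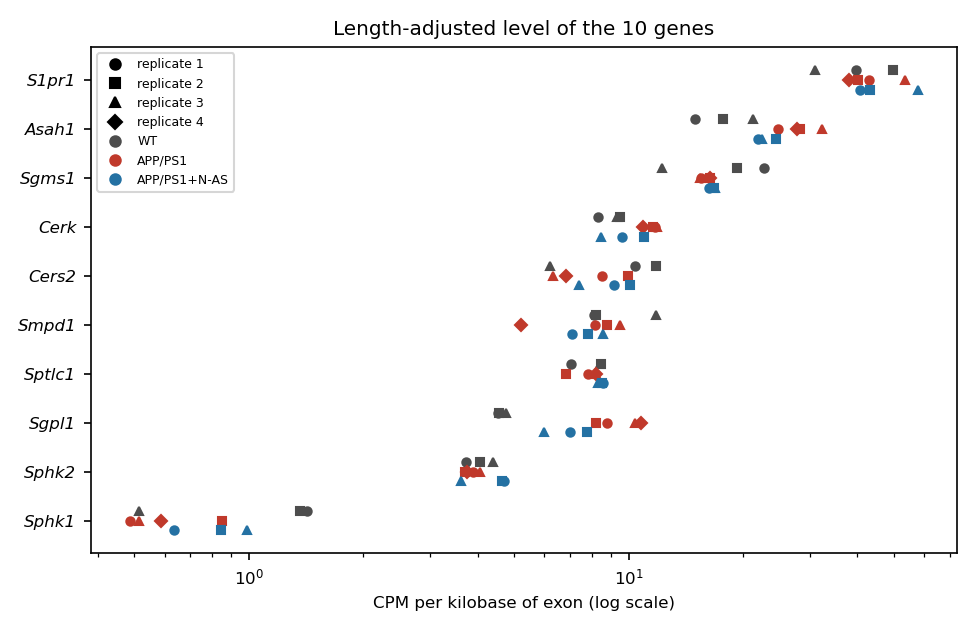
Length-adjusted level (CPM per kb of exon, log axis) of the 10 genes, 1 point per library, with colour for group and shape for replicate; genes are ordered by their mean over the 10 libraries. S1pr1 lies at the top with a mean of 43.6 CPM per kb, and Sphk1, with 0.82 CPM per kb, is separate from the other 9 genes in every library.

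Between APP/PS1 and WT, Sgpl1, S1P lyase, rose 2.07-fold and Asah1, acid ceramidase, 1.57-fold, and the other 8 genes did not pass the test. These were 2 of the 10 genes, both higher and 0 lower, at a p under 0.05 after Benjamini-Hochberg adjustment in the quasi-likelihood test of edgeR, where 3.47% of all genes tested passed, 2.67% higher and 0.796% lower. In 3 of 10 genes (Sgpl1, Asah1 and Cerk) every APP/PS1 library was above every WT library, against 8.15% of all genes tested (14.9% in either direction), and 0 of 10 lay below, against 6.73%. Without adjustment, 3 were higher and 1 lower at a p under 0.05, against 8.3% and 8.9% of all genes. The median log2 fold change of the 10 genes was -0.06, close to that of all genes tested, -0.07.

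**Figure D2:**
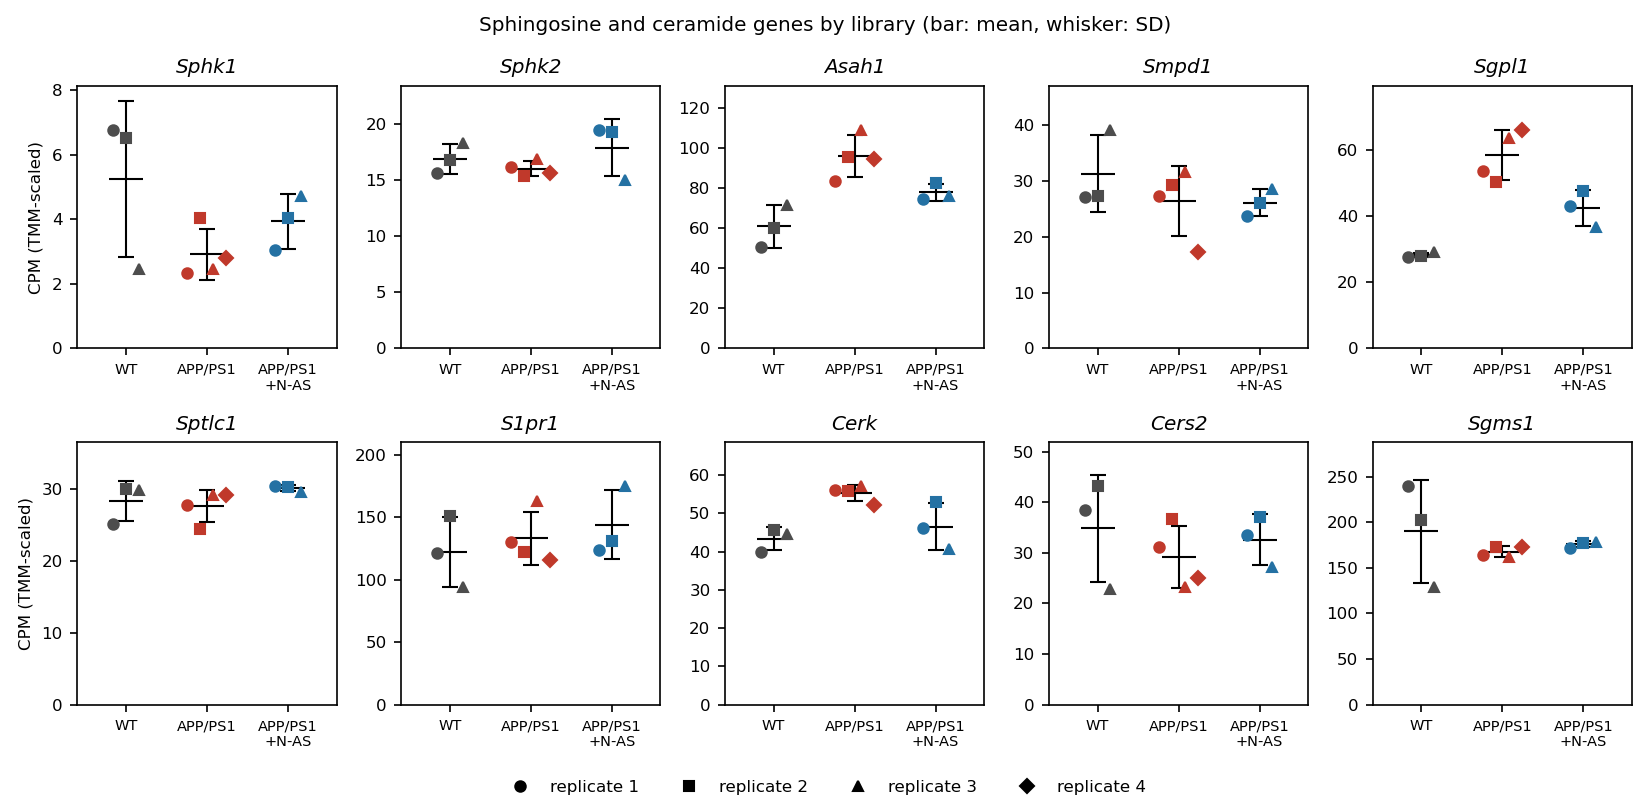
CPM of each of the 10 genes by library in the 3 groups, with shape for replicate, a bar at the group mean and a whisker of 1 SD; each axis starts at 0. The Sgpl1 points of the 3 groups do not overlap, from 27.8 to 29.1 CPM in WT to 50.3 to 66.3 CPM in APP/PS1, and WT replicate 3 lies apart from the other WT libraries for Sphk1, Cers2 and Sgms1.

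The change was largest for Sgpl1, which encodes the enzyme of the endoplasmic reticulum that ends the pathway. It lies at chr10:61098642-61147703 (GRCm38) on the minus strand. Sgpl1 was at 27.8, 28 and 29.1 CPM in the WT libraries, and at 53.9, 50.3, 63.8 and 66.3 CPM in APP/PS1 replicates 1 to 4. The WT libraries were within a narrow range, a coefficient of variation of 2.51%, and the lowest APP/PS1 library stood clear of the highest WT library. The log2 fold change was 1.05 with a standard error of 0.14 and a 95% interval of 0.74 to 1.36 (adjusted p = 0.00269, edgeR's quasi-likelihood test). It passed in all 18 alternative settings tried, with log2 fold changes of 0.87 to 1.12. Within library numbers 1 to 6 (replicates 1 and 2 of each group) the mean log2 difference was 0.89. Within numbers 7 to 10, which hold 1 WT library, it was 1.15.

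Asah1 encodes acid ceramidase, which cleaves ceramide to sphingosine in the lysosome, and lies at chr8:41340197-41374773 (GRCm38) on the minus strand. Its level was 50.6, 59.9 and 71.7 CPM in WT and 83.6, 95.5, 109 and 94.2 CPM in APP/PS1 replicates 1 to 4. The groups did not overlap, but WT replicate 3 came near the APP/PS1 range. The log2 fold change was 0.65 with a standard error of 0.15 and a 95% interval of 0.33 to 0.98 (adjusted p = 0.0368, edgeR's quasi-likelihood test). This call was close to the threshold and held in 10 of 18 alternatives, with adjusted p from 0.00149 to 0.116. It was lost without WT replicate 1 (0.54, adjusted p = 0.112), WT replicate 2 (0.65, 0.102) or APP/PS1 replicate 2 (0.65, 0.0887), 3 (0.59, 0.0995) or 4 (0.67, 0.0838), in edgeR as before. Library numbers 1 to 6 gave a log2 difference of 0.69, and numbers 7 to 10, with 1 WT library, gave 0.50.

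Both genes moved with the microglial markers. Of the 18 markers, 14 passed the test as higher in APP/PS1 and 0 as lower, and their mean log2 CPM was 1.56 higher than in WT, while that of 10 oligodendrocyte markers differed by -1.18. Among the lists of other cell types, 1 of 10 astrocyte markers rose, and 0 of the markers tested for neurons, oligodendrocyte precursors, endothelial and mural cells, border macrophages, neutrophils, lymphocytes, and choroid plexus with ependyma passed in either direction. The 5 markers of choroid plexus and ependyma were still higher in APP/PS1 by 1.40 in mean log2 CPM. They summed to 412, 413 and 21.4 CPM in WT replicates 1 to 3 and to 720 to 1215.1 CPM in APP/PS1, without overlap, and WT replicate 3 was far below the others. Neutrophil markers differed by 0.68, which rested on APP/PS1 replicate 3 with a sum of 66.7 CPM. APP/PS1 replicates 1, 2 and 4 had 8.11, 8.02 and 4.05 CPM, within the WT range of 3.33 to 9.03 CPM. The markers of the remaining lists differed by -0.32 to 0.42. Relative to the mean of the microglial markers, the log2 difference of Sgpl1 was -0.53 and that of Asah1 -0.90. In bulk RNA, more cells of a type and more RNA per cell cannot be told apart, and the part of marker content in these differences was not tested. Pearson's r of log2 CPM over the 10 libraries, which share groups and preparation, put Klhl6, Ptprc and Lyn nearest to Sgpl1, each with r = 0.99. Ptprc, the leukocyte antigen CD45, is itself 1 of the 18 markers, and Lyn is a kinase of myeloid and B cells. Nearest to Asah1 were Lpcat2 (0.98), an acyltransferase of phospholipids, Canx (0.98), the chaperone calnexin, and Ccni (0.97). Sgpl1 and Asah1 followed each other with r = 0.90.

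**Figure D3:**
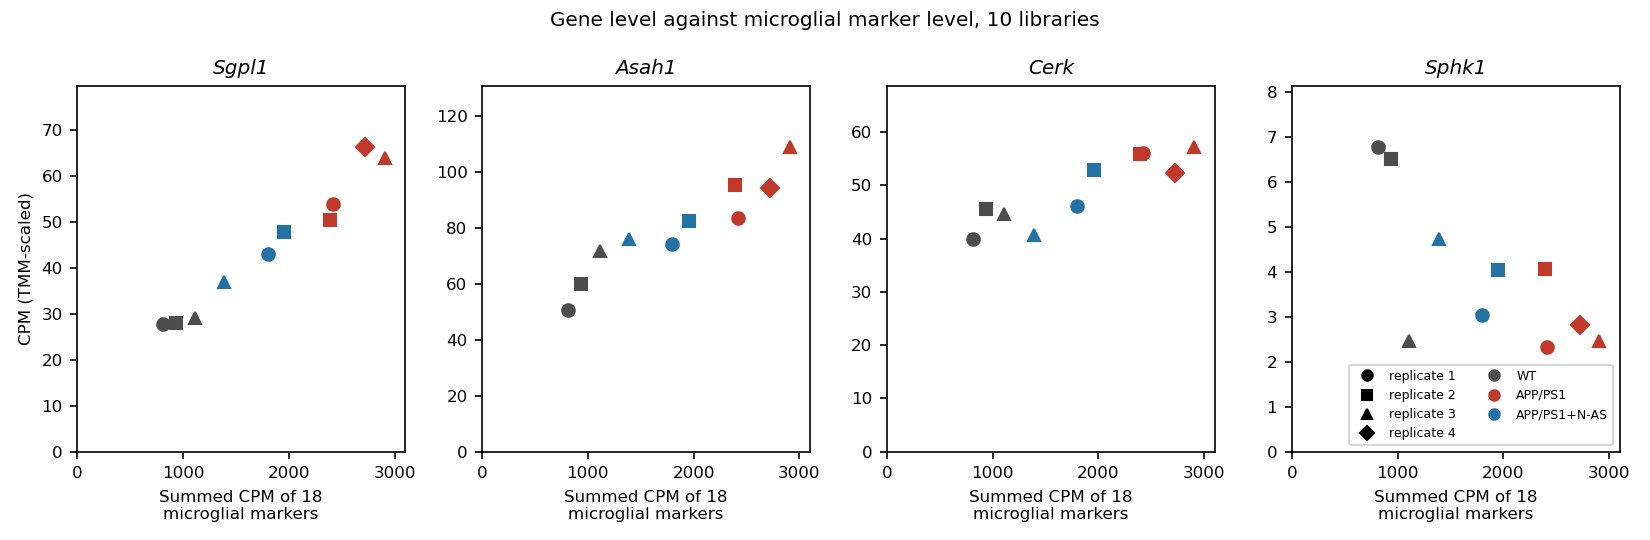
CPM of Sgpl1, Asah1, Cerk and Sphk1 against the summed CPM of 18 microglial markers in the 10 libraries, with colour for group and shape for replicate. Sgpl1 rises along the marker axis from 27.8 CPM at a marker sum of 815 CPM in WT replicate 1 to 63.8 CPM at 2907.6 CPM in APP/PS1 replicate 3, while Sphk1 is highest in WT replicates 1 and 2.

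Cerk, ceramide kinase, which makes ceramide-1-phosphate, lies at chr15:86139128-86186141 (GRCm38, minus strand). It was at 39.9, 45.6 and 44.7 CPM in WT and at 56.1, 55.9, 57.2 and 52.3 CPM in APP/PS1. The groups did not overlap, and the spread within them was small. The log2 fold change was 0.35 with a standard error of 0.12 and an interval of 0.09 to 0.61, which did not pass after adjustment (unadjusted p = 0.0139, adjusted p = 0.156, edgeR's quasi-likelihood test). It did not pass in any of 18 alternatives, with adjusted p from 0.0849 to 0.316. Cerk had r = 0.83 with both Sgpl1 and Asah1 over the 10 libraries.

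The sphingosine kinases showed no call. Sphk1, at chr11:116530925-116536674 (GRCm38, plus strand), was at 6.77, 6.5 and 2.46 CPM in WT and at 2.33, 4.05, 2.46 and 2.81 CPM in APP/PS1, from 27 to 105 reads per library over all groups. WT replicates 1 and 2 were above all APP/PS1 libraries, and WT replicate 3 was within their range. The log2 fold change was -0.83 with a standard error of 0.36 and an interval of -1.62 to -0.04 (unadjusted p = 0.0408, adjusted p = 0.263, edgeR's quasi-likelihood test). Without WT replicate 3 it was -1.18 and passed (adjusted p = 0.0406, edgeR). Library numbers 1 to 6 gave a log2 difference of -0.99, and numbers 7 to 10, where WT replicate 3 is the 1 WT library, gave 0.08. That library also had the lowest oligodendrocyte and endothelial marker levels of the WT group, whose part was not tested. The genes nearest to Sphk1 over the 10 libraries were Ttc5 (r = 0.94), Ctgf (0.94), a matricellular growth factor, and Fam63a (0.93), and among the 10 genes Sgms1 (0.83) and Cers2 (0.74). Sphk2, the other sphingosine kinase, at chr7:45709467-45718002 (GRCm38, minus strand), differed by -0.08 with an interval of -0.37 to 0.21 on the log2 scale. Its exons share 539 bases with Dbp and 373 with Rpl18 on the opposite strand, and whether counting used the strand is not given in the sources used here, so its level is uncertain. In the same annotation Sphk1 shares 192 exonic bases with Gm29292, an antisense gene that the count table does not list.

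Synthesis and sphingomyelin turnover did not pass the test in either direction. Sptlc1, a subunit of serine palmitoyltransferase (chr13:53332748-53377397), was 24.4 to 30.4 CPM over all libraries, with a log2 fold change of -0.04 and an interval of -0.29 to 0.22 between APP/PS1 and WT. Cers2, the synthase of ceramides with very long acyl chains (chr3:95314791-95323599), was 22.9 to 43.2 CPM in WT and 23.2 to 36.6 CPM in APP/PS1, which is a log2 fold change of -0.26 with an interval of -0.77 to 0.25. Sgms1 (chr19:32122727-32389714) was 240, 203 and 129 CPM in WT, where the libraries differed most, against 162 to 173 CPM in APP/PS1. For Sgms1 the log2 fold change was -0.18 with an interval of -0.59 to 0.23. Cers2 shares 75 exonic bases with Setdb1 on the opposite strand, so its count is uncertain in the same way as that of Sphk2. Smpd1, the acid sphingomyelinase of the lysosome (chr7:105554360-105558389), was 27.1 to 39.2 CPM in WT and 17.3 to 31.6 CPM in APP/PS1, and its log2 fold change was -0.25 with an interval of -0.71 to 0.21. S1pr1 (chr3:115710433-115715072) was 94.1 to 151 CPM in WT and 116 to 163 CPM in APP/PS1, and its log2 fold change was 0.12 with an interval of -0.31 to 0.56. The adjusted p-values of Sphk2 and of these 5 genes were 0.608 to 0.91 in edgeR's quasi-likelihood test, and the groups overlapped for each. The direction of Sptlc1, Sgms1, Smpd1 and S1pr1 turned in at least 1 alternative, and the intervals leave room for changes either way.

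**Figure D4:**
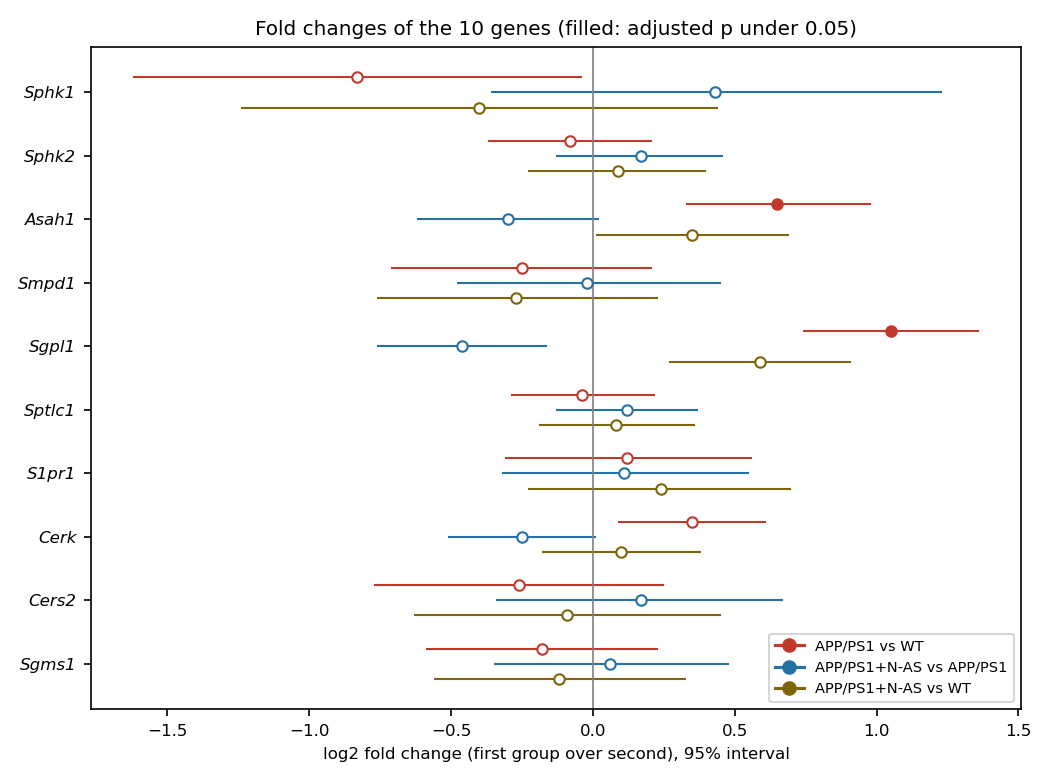
Log2 fold change with its 95% interval for each of the 10 genes in the 3 comparisons, in edgeR's quasi-likelihood fit; filled points have an adjusted p under 0.05. The filled points are Sgpl1 (1.05) and Asah1 (0.65) between APP/PS1 and WT, and both genes have points below 0 between APP/PS1+N-AS and APP/PS1.

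The start regions of the genes were read from RefSeq (GRCm38.p6), whose windows run from 250 bases before to 50 bases after a transcript start. It gave 17 windows for 8 of the genes. Asah1 and S1pr1 had no window there, so their start regions were not searched. They were searched on both strands for CACGTG, the E-box bound by several helix-loop-helix factors, and for the palindromic CLEAR element of 10 letters bound by TFEB, a regulator of lysosomal genes, which holds the E-box in its middle. The E-box was in 3 windows of 2 genes, Cers2 and Sphk1, and is in 7.15% of the 32851 windows of all genes. By gene, 2 of the 8 had it, against 8.09% of all genes with a window. The CLEAR palindrome was in 0 of the 17 windows and is in 0.326% of all. The windows of Sgpl1 (chr10:61147635-61147934, minus strand) and Cerk (chr15:86186092-86186391, minus strand) are printed because these genes were above WT in every APP/PS1 library, and windows of Cers2 (chr3:95314940-95315239, plus strand) and Sphk1 (chr11:116532194-116532493, plus strand) because they hold the E-box, in capitals. It starts 129 bases before the Cers2 start and 95 bases before the Sphk1 start. The other Sphk1 window with a match overlaps the one printed and holds the same site.
Sgpl1: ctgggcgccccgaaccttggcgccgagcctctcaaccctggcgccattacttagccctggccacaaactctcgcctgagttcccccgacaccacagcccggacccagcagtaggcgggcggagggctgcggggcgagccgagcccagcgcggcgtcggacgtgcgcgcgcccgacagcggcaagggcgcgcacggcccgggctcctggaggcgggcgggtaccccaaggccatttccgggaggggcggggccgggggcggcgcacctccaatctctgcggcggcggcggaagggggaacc
Cerk: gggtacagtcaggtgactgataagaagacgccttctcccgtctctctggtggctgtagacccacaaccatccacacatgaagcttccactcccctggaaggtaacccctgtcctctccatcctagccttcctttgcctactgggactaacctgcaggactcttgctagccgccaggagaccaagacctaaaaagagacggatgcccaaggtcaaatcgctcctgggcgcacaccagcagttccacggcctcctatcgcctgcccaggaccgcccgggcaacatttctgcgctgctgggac
Cers2: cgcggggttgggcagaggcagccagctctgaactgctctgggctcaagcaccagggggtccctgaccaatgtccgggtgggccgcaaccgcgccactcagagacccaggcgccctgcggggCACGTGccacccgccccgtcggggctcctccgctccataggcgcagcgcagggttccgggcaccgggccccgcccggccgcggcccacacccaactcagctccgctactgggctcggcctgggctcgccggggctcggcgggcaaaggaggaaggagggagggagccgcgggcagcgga
Sphk1: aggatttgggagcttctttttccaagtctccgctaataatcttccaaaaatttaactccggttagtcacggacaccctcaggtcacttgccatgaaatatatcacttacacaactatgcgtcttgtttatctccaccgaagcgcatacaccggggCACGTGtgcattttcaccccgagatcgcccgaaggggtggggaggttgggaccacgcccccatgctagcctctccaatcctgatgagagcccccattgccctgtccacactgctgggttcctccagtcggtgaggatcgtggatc
The Sgpl1 and Cers2 windows are rich in G and C (75.3% and 75%), and those of Cerk (58.3%) and Sphk1 (53%) less so. A match is a string of letters in the window and not a measured binding site.

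The wider pathway was covered by 59 further genes in 10 lists by role. Between APP/PS1 and WT, 5 of the 59 rose and 2 fell at an adjusted p under 0.05 in edgeR's quasi-likelihood test, against 3.47% of all genes tested. Their median log2 fold change was -0.08, against -0.07 over all genes. The list of lysosomal sphingolipid breakdown held 3 of the calls, with 3 of 9 genes higher, 0 lower and a median of 0.43. The list as drawn up includes Gba2, whose enzyme works outside the lysosome and whose log2 fold change was -0.48 (adjusted p = 0.121, edgeR); the other 8 genes had a median of 0.47. The called genes were Hexa (2.02, adjusted p = 0.00188), the alpha subunit of beta-hexosaminidase A, Glb1 (1.14, 0.00331), beta-galactosidase, and Gm2a (0.85, 0.0107), the GM2 activator, in log2 fold change from edgeR. Hexa was at 38.3, 48.4 and 56.5 CPM in WT and at 151, 150, 237 and 236 CPM in APP/PS1 replicates 1 to 4. Glb1 was 8.17 to 9.51 CPM in WT and 16 to 23.4 CPM in APP/PS1, and neither gene's groups overlapped.

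Outside the lysosomal list, 4 genes of 4 lists passed. Acer3 (0.73, adjusted p = 0.0123) and Ppap2a (0.75, 0.0311) rose. Acer3 encodes an alkaline ceramidase and was the 1 called gene of 5 listed as other ceramidases. Ppap2a, the older symbol of the lipid phosphatase gene Plpp1, is 1 of 8 listed as S1P phosphatases and transporters. As drawn up, the ceramidase list includes Naaa, an acid amidase, and the S1P list includes Aldh3a2, an aldehyde dehydrogenase. S1pr5 (-1.75, adjusted p = 0.011), an S1P receptor of oligodendrocytes and natural killer cells and 1 of 4 other receptors, and Fa2h (-1.52, 0.044), which hydroxylates fatty acids of myelin lipids and is 1 of 8 genes of glycosphingolipid synthesis, fell, all in log2 fold change from edgeR. S1pr5 was 6.51 to 13.6 CPM in WT and 2.32 to 3.88 CPM in APP/PS1. Of the 10 oligodendrocyte markers, 3 fell and 0 rose in the same test, and the part of these cells in S1pr5 and Fa2h was not tested. In the lists of de novo synthesis (7 genes), serine palmitoyltransferase regulators (3), other ceramide synthases (5), sphingomyelin synthases and sphingomyelinases (7) and lipid transfer (3), 0 genes passed in either direction, with medians from -0.15 to 0.15. Hexa, Glb1 and S1pr5 passed in all 18 alternatives, and Acer3 in 17, lost without WT replicate 2 (adjusted p = 0.0522). Gm2a passed in 17 and was lost among library numbers 1 to 6 alone (0.0752). Fa2h passed in 11 of the 18 and Ppap2a in 8. Both were lost with the 2 groups alone (adjusted p = 0.0898 and 0.0676, edgeR), Fa2h also with limma (0.0503), and Ppap2a also with total counts only (0.0656), with the replicate block (0.087) and among library numbers 1 to 6 alone (0.1). Fa2h passed in 2 of 7 and Ppap2a in 1 of 7 fits that left out 1 library. The fits that kept the call left out WT replicate 3 or APP/PS1 replicate 2 for Fa2h and APP/PS1 replicate 1 for Ppap2a.

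**Figure D5:**
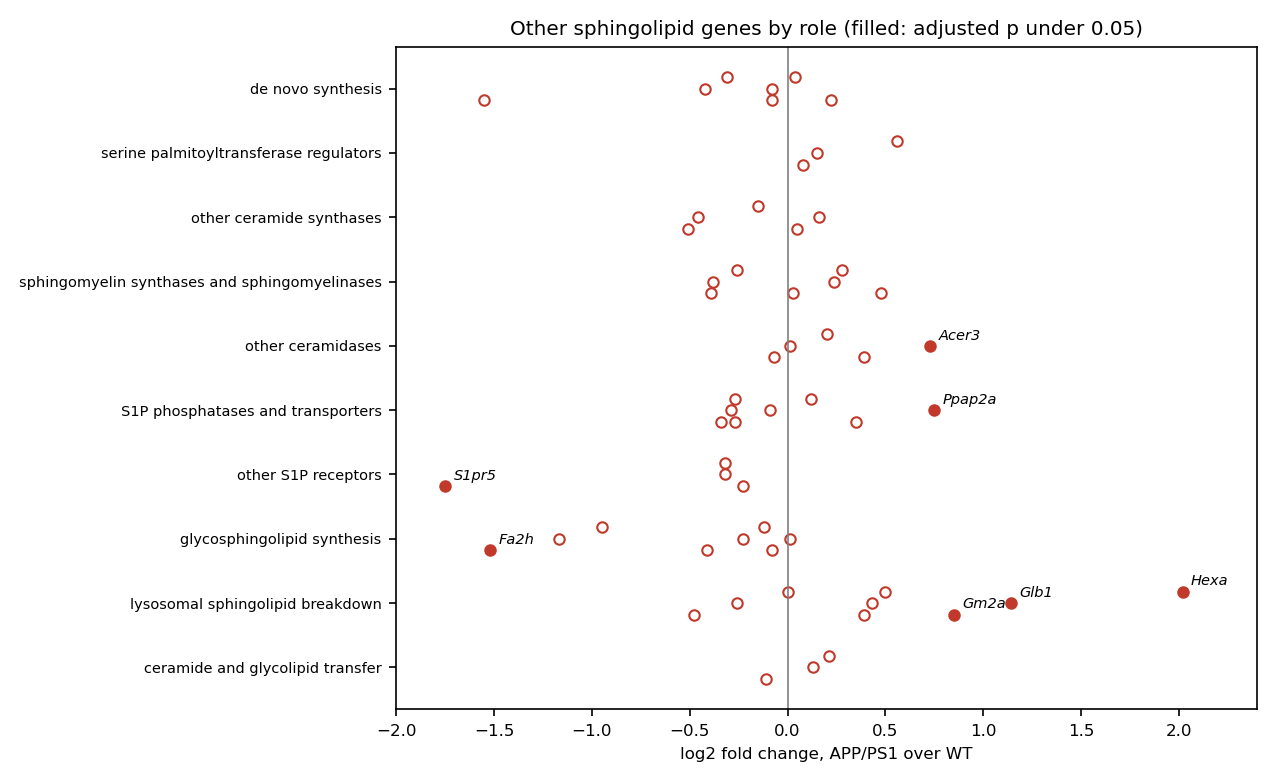
Log2 fold change between APP/PS1 and WT of the 59 other sphingolipid genes, 1 point per gene in 10 lists by role; filled points have an adjusted p under 0.05 in edgeR and are named. Of the 7 filled points, 3 are in the lysosomal list, from Gm2a (0.85) to Hexa (2.02), and the 2 below 0 are S1pr5 and Fa2h.

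With N-AS, 0 of the 10 genes and 0 of the 59 others passed between APP/PS1+N-AS and APP/PS1, and 0% of all genes tested passed, with a lowest adjusted p of 0.405 in edgeR's quasi-likelihood test. Without adjustment 1653 genes, 8.83% of those tested, had a p under 0.05, and DESeq2 called 73 after adjustment. Of the 10 genes, 0 were higher and 1 lower at an unadjusted p under 0.05, and the libraries did not overlap in 3, 1 higher (Sptlc1) and 2 lower (Sgpl1 and Asah1), against 6.26% higher and 6.46% lower of all genes (12.7% in either direction); at an unadjusted p under 0.05 the shares of all genes were 4.78% higher and 4.05% lower. This comparison and the one with WT share the APP/PS1 libraries, so their values are given side by side and not compared. Sgpl1 was at 43.1, 47.8 and 36.9 CPM in APP/PS1+N-AS replicates 1 to 3. All 3 libraries were below the lowest APP/PS1 library and above the highest WT library. The log2 fold change against APP/PS1 was -0.46 with a standard error of 0.14 and an interval of -0.76 to -0.16 (unadjusted p = 0.00616, adjusted p = 0.494, edgeR). Library numbers 1 to 6 gave a log2 difference of -0.20. Numbers 7 to 10, where APP/PS1+N-AS replicate 3 is the 1 library with N-AS, gave -0.81. That library had 29 Xist reads and the lowest summed microglial markers of its group, 1390.0 CPM, whose part was not tested.

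Asah1 was at 74.4, 82.6 and 76.1 CPM with N-AS, also between the other groups without overlap. Its log2 fold change against APP/PS1 was -0.30 with an interval of -0.62 to 0.02 (unadjusted p = 0.0627, adjusted p = 0.588, edgeR). The order WT, APP/PS1+N-AS, APP/PS1 without overlap was found in these 2 of the 10 genes and in 4 of the 59 others (Hexa, Glb1, Gm2a and Acer3). Of all genes tested 1.19% (222 genes) had it, and of the 18 microglial markers 12 did. The order needs every APP/PS1 library above every WT library, which 1527 of all genes tested had. The 2 genes and the 4 others named had that already, so the share over all genes is not a like base for them. The reverse order was found in 0 of the 10 genes, in 1 of the 59 others (S1pr5) and in 0.256% of all genes. With N-AS the markers' mean log2 CPM differed from that in APP/PS1 by -0.63, and it was 0.93 higher than in WT. The mean of the 5 choroid plexus and ependymal markers differed from that in APP/PS1 by -1.32, with sums of 621, 831 and 26 CPM in the APP/PS1+N-AS libraries, and that of the oligodendrocyte markers by 0.49. Of these lists 0 markers passed in edgeR. Relative to the markers, Sgpl1 differed by 0.17 and Asah1 by 0.33 between APP/PS1+N-AS and APP/PS1, and the part of marker content was not tested.

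Sphk1 was at 3.03, 4.03 and 4.73 CPM with N-AS, values that overlapped both other groups. Its log2 fold change was 0.43 against APP/PS1, with an interval of -0.36 to 1.23 (adjusted p = 0.766, edgeR), and -0.40 against WT, with an interval of -1.24 to 0.44 (adjusted p = 0.907). Both intervals include 0. Sphk2 differed by 0.17 from APP/PS1 with an interval of -0.13 to 0.46. Cerk was at 46.1, 52.9 and 40.6 CPM with N-AS, spread over the ranges of both other groups, with a log2 fold change of -0.25 against APP/PS1 (unadjusted p = 0.0593, adjusted p = 0.584, edgeR). Sptlc1 was 29.6 to 30.4 CPM with N-AS, above all APP/PS1 libraries by a small margin, with a log2 fold change of 0.12 and an interval of -0.13 to 0.37. The 4 others, Smpd1, S1pr1, Cers2 and Sgms1, had log2 fold changes of -0.02, 0.11, 0.17 and 0.06 against APP/PS1, and their groups overlapped.

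Between APP/PS1+N-AS and WT, 0 of the 10 genes and 0 of the 59 others passed in edgeR's quasi-likelihood test, against 0.187% of all genes tested (0.176% higher and 0.0107% lower). Without adjustment, 2 of the 10 were higher and 0 lower at a p under 0.05, against 3.64% and 3.09% of all genes (6.73% in either direction). These were Sgpl1 and Asah1, which did not overlap with WT. Of all genes, 4.9% were higher and 3.91% lower without overlap (8.81% in either direction). Sgpl1 differed from WT by 0.59 on the log2 scale with an interval of 0.27 to 0.91 (adjusted p = 0.247, edgeR), and it passed with DESeq2 (adjusted p = 0.0434). It also passed in edgeR with library numbers 1 to 6 alone (0.66, adjusted p = 0.0287), which was tried only once the data were known. Asah1 differed by 0.35 with an interval of 0.01 to 0.69 (adjusted p = 0.713, edgeR). For Hexa the log2 fold change was 1.13 (adjusted p = 0.175, edgeR), and it passed with DESeq2 (adjusted p = 0.00492). Against APP/PS1 the log2 fold change of Hexa was -0.88 (adjusted p = 0.494, edgeR).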

How the data were processed

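Cells prepared as microglia were sequenced as 10 libraries by the authors. They removed ribosomal RNA, used a stranded kit with paired reads, and deposited raw read counts per gene symbol. The submitters' processing notes name TopHat, edgeR and mm10, without versions. The deposited counts were used as they stand; the authors' FPKM values and quantile normalization were not. Of 24481 lines, those sharing a symbol were summed, which left 24421 symbols. Groups came from the sample labels, the alleles, dose and ages from the study's methods, and the pooling and vehicle from its figure legends.

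Genes were filtered with filterByExpr and scaled by TMM, and 18727 were tested in 1 model of the 3 groups with edgeR 4.0.16 (glmQLFit and glmQLFTest) in R 4.3.3. P-values were adjusted over all genes tested by the Benjamini-Hochberg method, with a threshold of 0.05. The common dispersion of 0.0752 corresponds to a biological coefficient of variation of 27.4%. For the correlations, the prior count in log2 CPM was 2. The log2 differences of marker lists, within library numbers and relative to markers are differences of mean log2 CPM without that prior count. They were taken after a constant was added to each CPM value, which draws genes of low level toward smaller differences. Between APP/PS1 and WT, Sphk1 differed by -0.67 on this scale, against -0.83 in edgeR's fit. No libraries of a group were duplicates (chi-square per degree of freedom 12.2 to 126). Reads carry no molecular identifiers, and p-values measure the spread between these pooled libraries. The test was tried on simulated counts first.

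The genes, lists and motifs were chosen with earlier results of these data known. Other pathway genes were named when they belonged to a list with a call and had its 2 lowest p-values, or when 5 or fewer were counted, and the 3 genes nearest in r were named for Sphk1, Sgpl1 and Asah1. The 59 other pathway genes include Plpp1, Plpp2, Plpp3 and Cert1 under older symbols; other listed pathway genes are not reported here. Results were recomputed with each library left out in turn, with a replicate block, with the 2 groups alone, with a covariate for library numbers 1 to 6 or 7 to 10, with robust dispersions, under upper-quartile or total-count scaling, under a filter of 1 read in all or of 10 counts in each library, and with voom and quantile normalization in limma 3.58.1 and DESeq2 1.42.0. The fit of library numbers 1 to 6 alone was added once the data had been seen.

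Replicate numbers are in the labels, but nothing says that libraries with 1 number were handled together. After removal of group means, same-numbered libraries of APP/PS1+N-AS and APP/PS1 correlated with r = 0.278, 0.142 and 0.309, those of APP/PS1 and WT with -0.485, 0.441 and -0.00962, and those of APP/PS1+N-AS and WT with -0.136, 0.348 and 0.24. The main fit was left unblocked. Between APP/PS1 and WT, a block by replicate number called 326 genes against 649 without it, and Asah1 was lost. Between APP/PS1+N-AS and APP/PS1 the main fit called 0 genes, so there was no call to lose, and the blocked fit also called 0. Libraries of these groups with different numbers correlated with r from -0.341 to 0.32, so the numbers do not stand out as pairs. Gene positions, exon lengths and overlaps came from GENCODE M21 (GRCm38).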

Additional observations from a re-analysis of the deposited data

How the results depend on the processing

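Sgpl1 kept its call between APP/PS1 and WT in all 18 alternatives, and Asah1 in 10 of them. The number of the 10 genes called in that comparison was 2, and 1 with total counts only, with the 2 groups alone, and with the replicate block, in each of which Asah1 was lost (adjusted p = 0.116, 0.096 and 0.0565 in edgeR). It was 1 to 3 when a library was left out, and 3 without WT replicate 3, where Sphk1 passed. The count of pathway genes was 7, and 4 to 7 when a library was left out, with 4 without WT replicate 2. The count over all genes was 649, and 1296 with DESeq2, 410 with the 2 groups alone, 326 with the replicate block, 1055 with library numbers as a covariate and 299 to 923 when a library was left out.

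Between APP/PS1+N-AS and APP/PS1, all 18 alternatives called 0 of the 10 genes, and the replicate block called 0 genes in all. DESeq2 called 1 pathway gene, Glb1, and 73 genes in all, library numbers 1 to 6 alone called 11, and leaving out a library 0 to 1. Between APP/PS1+N-AS and WT, DESeq2 called 1 of the 10 genes, 1 pathway gene and 180 genes in all, against 35 genes in all from edgeR. The count over all genes was 20 with quantile normalization, 2 with the 2 groups alone, 5 with the replicate block, 64 with library numbers as a covariate and 1 to 116 when a library was left out. Library numbers 1 to 6 alone, chosen after the data had been seen, called 1 of the 10 genes, 3 pathway genes and 437 genes in all.

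Directions turned for values near 0, all without a call. When a library was left out, Sgms1 ranged from -0.38 to 0.02, Sptlc1 from -0.11 to 0.02 and S1pr1 from -0.02 to 0.31 between APP/PS1 and WT. Smpd1 ranged from -0.19 to 0.08 (0.01 with quantile normalization) and S1pr1 from -0.05 to 0.22 between APP/PS1+N-AS and APP/PS1. Sgms1 ranged from -0.32 to 0.08 and Cers2 from -0.32 to 0.11 between APP/PS1+N-AS and WT. With library numbers 1 to 6 alone, Smpd1 was 0.02 and S1pr1 -0.14 between APP/PS1 and WT, and S1pr1 -0.13 between APP/PS1+N-AS and WT. The cause of these shifts was not tested. Sphk1 had the fewest reads of the 10 genes, 27 to 105 per library, and its log2 fold change between APP/PS1 and WT was -0.83 with a call only without WT replicate 3 (-1.18).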

Other observations

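The lists by role were also counted in the comparisons with N-AS, where 0 of the 59 other pathway genes passed after adjustment in edgeR's quasi-likelihood test. Among the 9 genes of lysosomal sphingolipid breakdown, 4 had lower and 1 had higher levels with N-AS than without it (unadjusted p under 0.05), against 4.05% lower and 4.78% higher of all genes tested. The median log2 fold change of the 9 was -0.21 against -0.01 over all genes. The 4 lower genes were Galc, Gm2a, Hexa and Glb1. In the same APP/PS1 libraries these 4 already lay above every WT library, so the share over all genes is not a like base for them. The 1 higher gene was Gba2 (0.44, adjusted p = 0.509), whose enzyme works outside the lysosome, and the other 8 had a median of -0.27. The 2 with the lowest p were Glb1 (-0.68, adjusted p = 0.478) and Hexa (-0.88, adjusted p = 0.494). Against WT, 3 of the 9 were higher with N-AS and 0 lower at an unadjusted p under 0.05, against 3.64% and 3.09% of all genes, with a median of 0.18 (0.21 without Gba2) against -0.04 over all genes. Of the 18 microglial markers, 12 were lower than in APP/PS1 and 14 higher than in WT at the same threshold, and their part was not tested.

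Over the 10 libraries, which share groups and preparation, r of log2 CPM of Sphk1 was -0.71 with Asah1, -0.64 with Sgpl1 and -0.06 with Smpd1. Set against the mean oligodendrocyte marker level, the log2 difference of Sphk1 between APP/PS1 and WT was 0.51. Against the endothelial, astrocyte and microglial markers it was -0.88, -1.09 and -2.23. The part of these cells was not tested.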
